A study of Mus musculus with 12 samples.

Results

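The serpin genes of the mouse liver were examined in germ-free mice given ghrelin or its vehicle. Members were all rows of the deposited gene table whose symbol is Serpin followed by a clade letter from a to i and a number, with names ending in -ps and Serpina7 left out. These were 62 of the 38087 rows. Clade A gave 24 of them, clade B 27, clade E 3, clades F and I 2 each, and clades C, D, G and H 1 each. The rule used names only, but it was chosen with earlier results of these data known. Serpina7 (ENSMUSG00000031271), the thyroxine-binding globulin of clade A, is not a member here. Its row fell with ghrelin, by 1.42 on the log2 scale (SE 0.21, adjusted p = 0.0206 by edgeR's quasi-likelihood test), so the counts below describe the family without it.

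Serpins are a superfamily of proteins that mostly inhibit serine proteases. An inhibitory serpin holds out a reactive centre loop as bait, and when a protease cuts the loop the serpin refolds and traps the enzyme. Hepatocytes secrete most of the serpins of blood plasma, among them alpha-1-antitrypsin (the Serpina1 genes), antithrombin (Serpinc1), heparin cofactor II (Serpind1), alpha-2-antiplasmin (Serpinf2) and the C1 inhibitor (Serping1). Some members carry hormones or fold collagen, and clade B members stay inside cells. The mouse has several copies of the Serpina1 and Serpina3 genes where humans have 1 of each.

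Livers came from male C57BL/6j mice aged 13 to 16 weeks that were kept germ-free, and all are labelled zeitgeber time 2. Both groups therefore lacked a gut microbiome. The ghrelin group had daily subcutaneous injections of rat ghrelin, a stomach hormone that stimulates appetite and growth hormone release, at 10 µg per mouse for 5 days. The control group received phosphate-buffered saline (PBS) by the same route and schedule. Each group had 6 libraries, called PBS 1 to PBS 6 and ghrelin 1 to ghrelin 6 after their label numbers. The labels do not state whether each library came from a separate mouse, so the p-values measure the spread between these libraries, which may in part be technical. The assay was total RNA sequencing after depletion of ribosomal RNA.

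Libraries held 15775059 to 22302533 counts. Values below are CPM, counts brought to a common library total, after scaling by the trimmed mean of M values (TMM), and differences are log2 fold changes of ghrelin over PBS. Hepatocyte markers summed to 108739 to 144006 CPM in the PBS libraries and 104883 to 122887 in the ghrelin libraries, and all 8 were present. Marker sums of stellate cells were 428 to 488 CPM with PBS and 415 to 478 with ghrelin. Those of endothelial cells were 586 to 654 and 585 to 666, of Kupffer cells 192 to 358 and 251 to 351, of cholangiocytes 20.8 to 33.0 and 25.4 to 33.1, and of lymphocytes 1.37 to 3.13 and 1.43 to 3.50. The sum of 8 neutrophil markers was 3.90 to 10.3 CPM with PBS and 0.816 to 4.90 with ghrelin, with Camp at 0 in every library. Libraries also stood apart in acute phase genes, whatever their group. Saa1, which encodes serum amyloid A, was at 1225 CPM in PBS 3, 1159 in PBS 4, 697 in ghrelin 4, 484 in ghrelin 5, 321 in PBS 2 and 168 in ghrelin 2, against 41.6 to 76.4 in the other 6 libraries.

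Serpins took a large share of the liver's messages, nearly all of it through clade A. The family gave between 4.77% of a library's counts (PBS 3) and 6.80% (ghrelin 3). Clade A alone gave 4.33% to 6.35%. Clade C gave 0.184% to 0.201%, clade F 0.118% to 0.152%, clade D 0.0597% to 0.0675% and clade G 0.0525% to 0.0727%. The 27 clade B rows together stayed at 0.00276% to 0.00378%. The Serpina3m row nearly repeats the Serpina3k row (described below), and without it the family share was 3.68% to 5.04%.

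Levels of different genes were compared as CPM per kilobase of exon. On this scale the mean over the 12 libraries was 7211 for Serpina3k, 5638 for Serpina1e, 3008 for Serpina1b, 2373 for Serpina1c, 1930.4 for Serpina1d and 941 for Serpina1a. The Serpina3m row gave 8941, but its count nearly repeats that of Serpina3k and the exons counted for it are not given, so its place in this order is uncertain. The next were Serpinf2 at 377, Serpina3n at 356, Serpind1 at 291, Serping1 at 267, Serpinc1 at 228 and Serpinf1 at 206 CPM per kb. The length is that of all annotated exons joined, 8.546 kb for Serpinc1 against 2.324 for Serpinf2 and 2.191 for Serpind1. By CPM alone Serpinc1 was the highest of these (1942, against 869 for Serpinf2 and 637 for Serpind1), so its place is uncertain too. Serpina6 and Serpina10 lay at 75.1 and 60.7 CPM per kb. The most abundant clade B row was Serpinb9 at 2.79, that of clade E was Serpine2 at 0.427, and that of clade I was Serpini1 at 0.0279 CPM per kb. Serpinb6a followed Serpinb9 at 2.61 CPM per kb, though by CPM alone it lay above Serpinb9 (14.2 against 9.75). Serpinf2 and Serpina3n do not differ beyond their spread, since the SD of Serpina3n was 287 with PBS and 183 with ghrelin.

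Of the 62 members, 32 had enough counts to be tested: 19 of clade A, 5 of clade B, both members of clade F, 2 of clade E, and the single members of clades C, D, G and H. Of the other 30, 25 had some count and 5 (Serpinb11, Serpinb3b, Serpinb3c, Serpinb9c and Serpini2) had none in any library. A count of 0 over all 12 libraries allows a level of up to 0.0127 CPM, which is 3 counts of their total and covers counting error only.

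None of the 32 tested serpins passed an adjusted p of 0.05 by edgeR's quasi-likelihood test, in which 0.106% of all genes tested (15 of 14170) were called. DESeq2 called 2 members, Serpina1e (adjusted p = 0.00421) and Serpina9 (adjusted p = 0.0475), and 221 genes in all. It was fitted to the 27410 genes with a count and applied its own filter, so its counts have another base than those of edgeR. Over all 20 alternatives the adjusted p of Serpina9 ranged from 0.0475 to 0.354. At an unadjusted p under 0.05, edgeR gave 9 of the 32 members (28.1%) against 13.4% of all genes. Without 3 rows that nearly repeat another (Serpina3m, Serpina3h and a second Serpina11 row, described below), it gave 8 of 29 (27.6%), with 22 of the 29 above 0. Of these 9, 8 were higher with ghrelin, where 6.44% of all genes were, and 1 was lower, where 6.94% of all genes were. Signed values lay above 0 for 25 members and below 0 for 7, with a median log2 fold change of 0.10. Over all genes tested, 50% lay above 0 and the median was 3.19e-05. Members are not separate measurements, so their shares do not count independent rows. Serpina3c and Serpina3i had the same highest libraries, and Serpina1a to Serpina1e share sequence (both described below). Groups overlapped in every one of the 32 members, while 0.826% of all genes had groups apart.

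**Figure D1:**
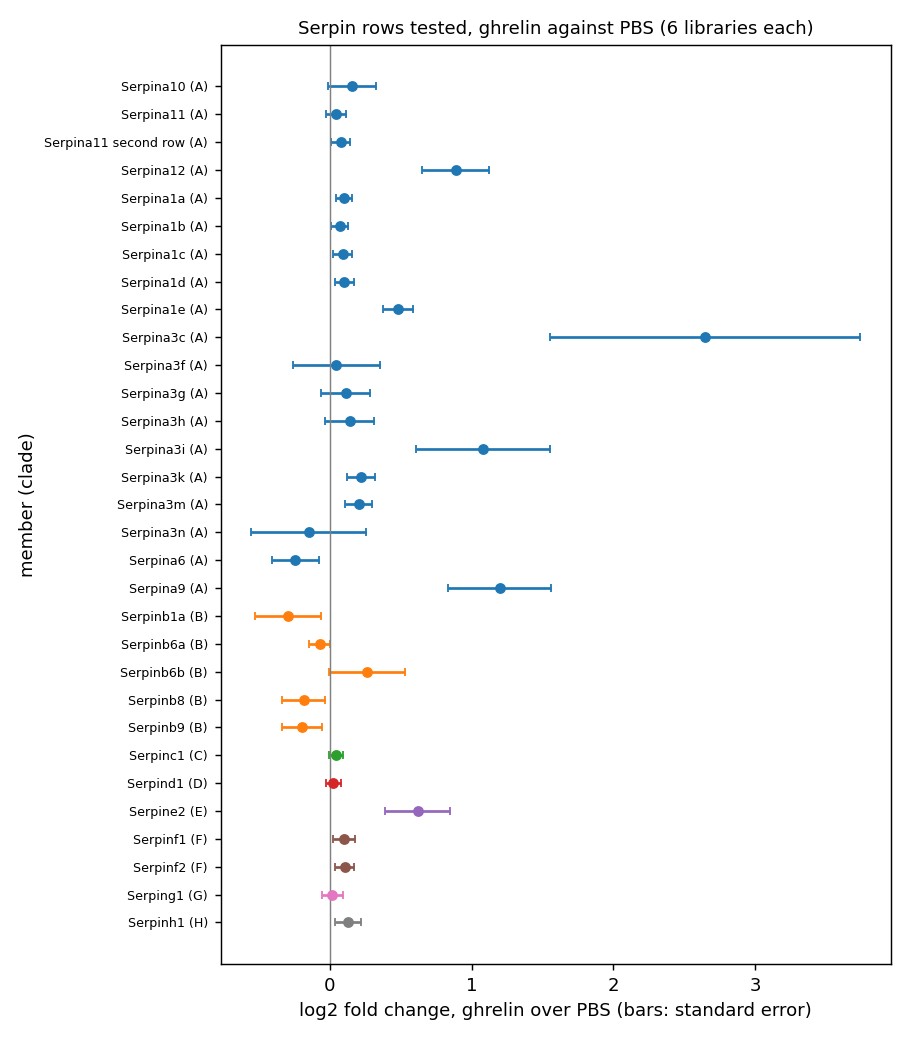
Log2 fold change of ghrelin over PBS for the tested serpin rows described here, coloured by clade (letter in parentheses), with bars for the standard error of the edgeR fit to 6 libraries per group. Most clade A points lie just right of 0, Serpina3c has the largest value (2.64) with the widest bar, and the clade B points lie mostly left of 0.

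Signs can be given clade by clade. In clade A, 17 of 19 tested rows lay above 0, with a median of 0.11, and 7 had an unadjusted p under 0.05. In clade B, 1 of 5 lay above 0, with a median of -0.18, and none had an unadjusted p under 0.05. The difference between these clades was not tested.

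Alpha-1-antitrypsin is the main plasma inhibitor of neutrophil elastase. The mouse reference has 5 liver copies, Serpina1a to Serpina1e, on the minus strand of chromosome 12. Serpina1e (ENSMUSG00000072849) spans chr12:103946931-103958975 in GRCm38, the assembly also called mm10. The 5 coding sequences share 96.3% to 98.5% of their bases in pairs. They are shown over the codons of the reactive centre loop, because the copies differ more there than over the rest of the coding sequence. The 90 bases run 5′ to 3′ from base 1147 to base 1236, counted along the Serpina1a reading frame of GENCODE M21, and capitals mark bases at which the copies differ.
Serpina1a: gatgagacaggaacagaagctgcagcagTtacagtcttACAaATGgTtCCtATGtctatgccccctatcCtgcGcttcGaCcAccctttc
Serpina1b: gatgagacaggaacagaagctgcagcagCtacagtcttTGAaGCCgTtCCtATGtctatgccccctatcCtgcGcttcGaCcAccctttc
Serpina1c: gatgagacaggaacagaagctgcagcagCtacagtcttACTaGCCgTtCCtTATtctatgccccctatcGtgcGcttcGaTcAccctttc
Serpina1d: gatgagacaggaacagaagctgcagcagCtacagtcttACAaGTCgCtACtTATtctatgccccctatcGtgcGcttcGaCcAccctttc
Serpina1e: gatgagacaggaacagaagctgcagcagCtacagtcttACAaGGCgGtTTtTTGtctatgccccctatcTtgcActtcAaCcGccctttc
Of these 90 positions 18 (20%) differ among the copies, against 68 of the other 1152 (5.90%). Serpina1e alone carries the differing base at 4 of the 18 positions. Of all stretches of 125 bases in its transcripts, 10.6% occur unchanged in another copy. That share was 12.7% for Serpina1b, 22.1% for Serpina1d, 37.1% for Serpina1a and 53.1% for Serpina1c, so the rows of Serpina1a and Serpina1c are less certain than that of Serpina1e.

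Serpina1e had the smallest p of the family and the other copies had smaller differences. Serpina1e was at 7820 CPM in PBS 1, 7663 in PBS 2, 6305 in PBS 3, 7001 in PBS 4, 9368 in PBS 5 and 7477 in PBS 6. With ghrelin it was at 9557 CPM in library 1, 11821 in 2, 11036 in 3, 8150 in 4, 12394 in 5 and 10803 in 6. All ghrelin libraries but ghrelin 4 lay above every PBS library, and ghrelin 4 lay below PBS 5. The means were 7606 ± 1022 CPM with PBS and 10627 ± 1551 with ghrelin (SD, n = 6 each), a log2 fold change of 0.48 (SE 0.11, edgeR adjusted p = 0.111). Without the library ghrelin 4 the value was 0.55 and the adjusted p by edgeR 0.029, and over 20 alternative settings the adjusted p ranged from 0.00421 to 0.221.

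The other 4 copies lay within a narrow band. Serpina1b ran from 6423 through a median of 7092 to 7719 CPM with PBS, and from 7236 through 7337 to 8030 with ghrelin. Serpina1c ran from 2771 to 3401 CPM with PBS (median 3161) and from 3061 to 3623 with ghrelin (median 3295). The PBS libraries of Serpina1d lay at 2282 to 2808 CPM (median 2605) and its ghrelin libraries at 2601 to 3167 (median 2720). For Serpina1a these were 1522 to 1745 CPM (median 1684) and 1654 to 1888 (median 1793). Groups overlapped in all 4, and their log2 fold changes were 0.07 to 0.10 with edgeR adjusted p from 0.442 to 0.649.

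The part of Serpina1e in the copies' counts was not tested. It was 30.9% to 38.9% of the 5 copies with PBS (median 33.2%) and 34.6% to 44.2% with ghrelin (median 42.1%), with means of 34.4 ± 3.0% and 40.8 ± 3.47% (SD, n = 6 each). These ranges overlap, since ghrelin 4 lay below PBS 2 and PBS 5 and ghrelin 1 lay just below PBS 5. The 5 copies added together gave 22079 ± 1523 CPM with PBS and 25969 ± 1903 with ghrelin (SD, n = 6 each), a log2 ratio of the means of 0.23. Without Serpina1e the sum of the other 4 gave a log2 ratio of 0.08.

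**Figure D2:**
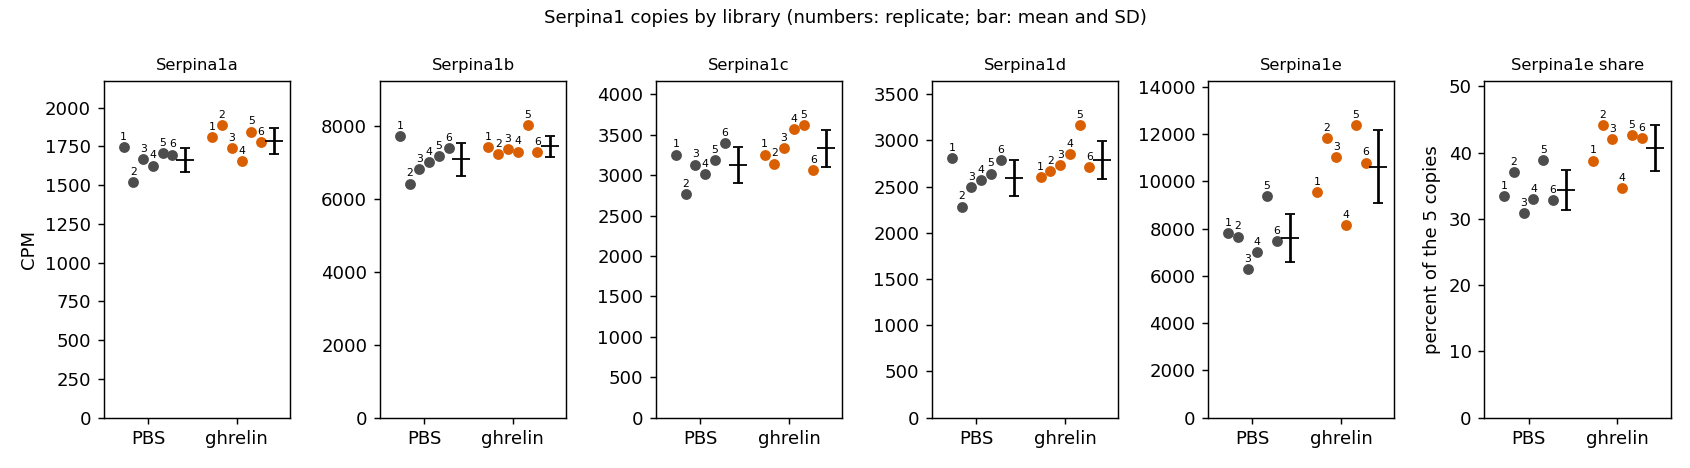
CPM of the 5 Serpina1 copies and, at the right, Serpina1e as a percentage of the 5 copies, by library. Points are libraries with their replicate number, and the bar beside each group is the mean with SD (n = 6). Serpina1e has 5 of 6 ghrelin libraries above all PBS libraries, while the groups of the other copies lie largely side by side.

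Upstream of the start sites the copies are also alike. The stretch ending 10 bases before the RefSeq start of Serpina1b (chr12:103738200-103738389, minus strand) and the matching stretch of Serpina1e (chr12:103956960-103957147, minus strand, ending 62 bases before its RefSeq start) are shown because these were the 2 most abundant copies per kilobase. Sequences are from RefSeq on GRCm38.p6, 5′ to 3′, and capitals mark bases that differ among the 5 copies, insertions included.
Serpina1b: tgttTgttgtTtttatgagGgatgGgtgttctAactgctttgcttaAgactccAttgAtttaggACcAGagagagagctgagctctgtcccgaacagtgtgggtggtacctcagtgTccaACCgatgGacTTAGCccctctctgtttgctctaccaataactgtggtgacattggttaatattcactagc
Serpina1e: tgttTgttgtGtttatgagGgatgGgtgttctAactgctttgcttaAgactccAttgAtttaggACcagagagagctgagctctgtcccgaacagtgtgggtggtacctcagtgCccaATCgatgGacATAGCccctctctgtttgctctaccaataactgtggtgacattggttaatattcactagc
These 2 stretches share 97.98% of their aligned bases. Within the stretch shown, 20 of the 188 positions present in all 5 copies differ, and at 1 of them Serpina1e stands alone.

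Serpina12 and Serpina9 lie next to each other beyond Serpina1e and Serpina11. Serpina12 (ENSMUSG00000041567, chr12:104028769-104044443) encodes vaspin, an adipokine that inhibits the protease kallikrein 7. Its PBS libraries 1 to 6 were at 17.0, 18.4, 14.6, 17.6, 35.0 and 26.7 CPM. Ghrelin libraries 1 to 6 were at 40.5, 23.5, 54.0, 24.7, 47.6 and 49.2 CPM. Ghrelin 1, 3, 5 and 6 lay above every PBS library, and ghrelin 2 and ghrelin 4 lay within the PBS range. This gave a log2 fold change of 0.89 (SE 0.24, edgeR adjusted p = 0.161).

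Serpina9 (ENSMUSG00000058260, chr12:103994743-104013755) encodes centerin, known from germinal centre B cells. It was at 0.838, 0.906, 0.647, 0.932, 1.93 and 2.19 CPM in PBS libraries 1 to 6, and at 3.45, 2.26, 3.02, 0.800, 3.78 and 4.03 CPM in ghrelin libraries 1 to 6. These levels rest on 14 to 84 counts per library. All ghrelin libraries but ghrelin 4 lay above every PBS library. Its log2 fold change was 1.20 (SE 0.36, edgeR adjusted p = 0.202). Lymphocyte marker sums had overlapping ranges in the groups, as given above, and their part in the Serpina9 values was not tested. Serpina9 shares 72 exon bases with the second Serpina11 row.

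Serpina1e, Serpina9, Serpina11 and Serpina12 were alike in their extreme libraries: ghrelin 4 was the lowest ghrelin library for Serpina1e, Serpina9 and Serpina11 and the second lowest for Serpina12, and PBS 5 was the highest or second highest PBS library for all 4. This was not particular to them. C8b, Cyp7b1 and Mup20, which are not serpins, were also lowest of the ghrelin group in ghrelin 4 (425, 332 and 2395 CPM). In PBS 5 they were highest or second highest of the PBS group (490, 540 and 2532 CPM). Saa1 and Alb went the other way, highest of the ghrelin group in ghrelin 4 (697 and 65089 CPM). They were lowest of the PBS group in PBS 5 (43.3 and 52356 CPM). The share of all genes with either pattern was not computed. Serpina11 was at 67.6 to 84.0 CPM with PBS (median 72.5) and 65.9 to 83.3 with ghrelin (median 78.3), ranges that lie over each other, with a log2 fold change of 0.05 (edgeR adjusted p = 0.830). A second row also carries the symbol Serpina11 (ENSMUSG00000093753, which GENCODE M21 calls Gm28577). It shares 669 of its 741 exon bases with the first and held 56.3% to 61.9% of the first row's count, so it is not an independent measurement.

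The Serpina3 genes, mouse relatives of human alpha-1-antichymotrypsin, follow on chromosome 12. Serpina3k (ENSMUSG00000058207) encodes contrapsin, an abundant plasma inhibitor of trypsin-like proteases. It ran from 10158 through a median of 14192 to 15683 CPM with PBS, and from 14578 through 15961 to 17547 with ghrelin. PBS 3 was the lowest of all libraries and the groups overlapped. The log2 fold change was 0.22 (SE 0.098, edgeR adjusted p = 0.342). Serpina3m (ENSMUSG00000079012) ran from 10782 to 16081 CPM with PBS (median 14895) and from 15004 to 17995 with ghrelin (median 16440), a log2 fold change of 0.20 (SE 0.093, edgeR adjusted p = 0.357).

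These 2 rows cannot be read as 2 genes. In every library the Serpina3k count was 92.9% to 98.0% of the Serpina3m count. In GENCODE M21 both genes start at chr12 position 104338486, the Serpina3m span (to 104394257) contains the Serpina3k span (to 104346144), and their exons share 60 bases. The sequences themselves are distinct, with 2.93% of the 125-base stretches of Serpina3m found in Serpina3k. What the Serpina3m row held beyond the Serpina3k row was 390 to 1016 CPM with PBS (median 585, highest in PBS 4) and 343 to 614 with ghrelin (median 463), with groups that overlap. Its means were 599.8 ± 228 CPM and 475 ± 94.3 (SD, n = 6 each), a log2 ratio of -0.34, opposite in sign to the 2 rows. Serpina3g and Serpina3h were also near equal in count, but their spans do not overlap. In GENCODE M21 they are chr12:104236245-104241939 and chr12:104247905-104253669, and the cause of the near-equal counts was not tested. Serpina3g held 91.7% to 99.2% of the Serpina3h count, and GENCODE M21 lists Serpina3h as a transcribed pseudogene. Serpina3h ran from 6.18 to 12.7 CPM with PBS and from 7.44 to 14.2 with ghrelin, with a log2 fold change of 0.14 (edgeR adjusted p = 0.770).

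Serpina3n encodes an acute phase inhibitor of granzyme B and cathepsin G, and it varied more between libraries than between groups. It was at 473, 583, 885, 1922, 377 and 396 CPM in PBS libraries 1 to 6, and at 439, 565, 406, 1222, 1130 and 420 CPM in ghrelin libraries 1 to 6. High libraries occurred in both groups: PBS 4, ghrelin 4, ghrelin 5 and PBS 3. The log2 fold change was -0.15 (SE 0.41, edgeR adjusted p = 0.914), and without PBS 4 it was 0.36. Its spread within groups (SD 0.82 on the log2 scale) was above that of 99.0% of the genes tested.

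Serpina3n followed Saa1 across the libraries. With each group centred on its own mean, Pearson's r of the log2 CPM values was 0.92 over 12 libraries (permutation p = 3.0e-05, 1.2e-04 after Benjamini-Hochberg adjustment over 4 relations computed, of which 3 are given). Spearman's rho was 0.86 (permutation p = 0.00063, adjusted 0.00252). Leaving out PBS 3 and PBS 4, the libraries farthest from the median of Saa1, gave r = 0.94. The other relations given did not pass. For Serpina1e with Mup20, a growth hormone dependent urinary protein gene, r was 0.31 and rho 0.26 (permutation p = 0.328 and 0.419, adjusted 0.594 and 0.559), and r was 0.34 without the 2 farthest libraries. For Serpina6 with Tat, a glucocorticoid target gene, r was -0.25 and rho -0.27 (permutation p = 0.445 and 0.405, adjusted 0.594 and 0.559), and r was -0.14 without 2. The excess of the Serpina3m row over the Serpina3k row also had its highest value in PBS 4.

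**Figure D3:**
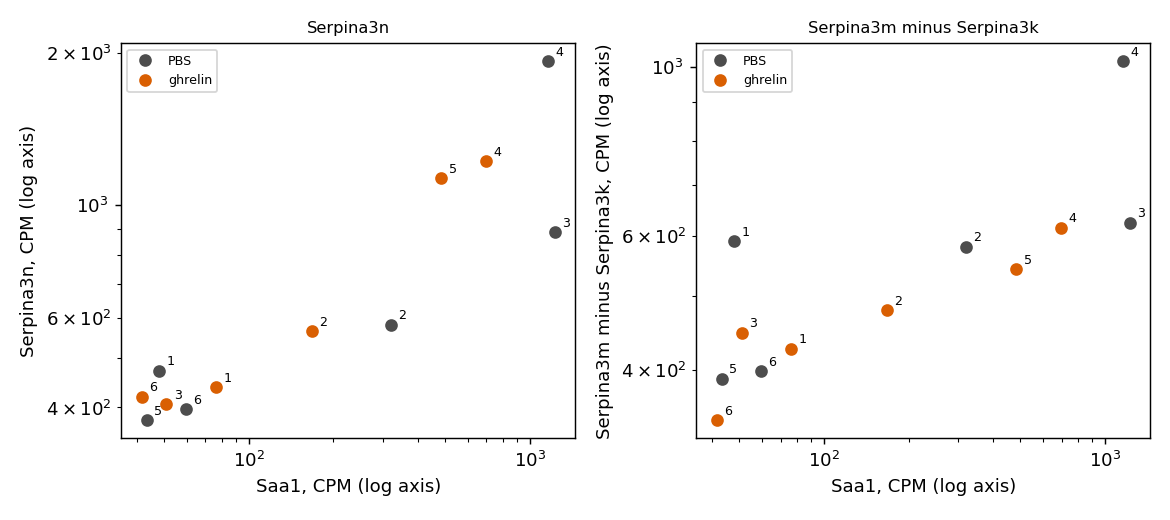
Serpina3n (left) and the difference between the Serpina3m and Serpina3k rows (right) against Saa1, all in CPM on log axes. Points are the 12 libraries with their replicate number. Serpina3n climbs with Saa1 in both groups, and PBS 4, at 1159 CPM of Saa1, is highest in both panels.

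A block of Serpina3 genes was high in 4 libraries and near 0 in the other 8. This pattern was noticed after the values were seen. Serpina3c (ENSMUSG00000066361, chr12:104146382-104153870, minus strand), a serine protease inhibitor gene, was at 22.8 CPM in PBS 3, 57.4 in ghrelin 1, 68.0 in ghrelin 3 and 46.5 in ghrelin 5, from 494, 964, 1374 and 751 counts. In the other 8 libraries it was at 0.547 to 1.44 CPM, from 12 to 26 counts. One of the 4 high libraries was a PBS library and 3 were ghrelin libraries, so both groups held high and low livers. In bulk tissue more cells with a message and more message per cell cannot be told apart. The log2 fold change of ghrelin over PBS was 2.64 (SE 1.1, edgeR adjusted p = 0.315), and without PBS 3 it was 4.93 (adjusted p = 0.174, range over 20 alternatives 0.126 to 0.504). The within-group spread of Serpina3c (SD 2.56 on the log2 scale) was above that of 99.9% of the genes tested.

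The same 4 libraries were highest for 5 other members. Serpina3j was at 1.76 CPM in PBS 3, 4.47 in ghrelin 1, 4.45 in ghrelin 3 and 3.10 in ghrelin 5, and at 0.0480 to 0.367 elsewhere. Serpina3a was at 0.601, 1.31, 1.68 and 1.42 CPM in those libraries and at 0.219 or less in the rest. Serpina3b was at 0.831, 1.43, 1.68 and 1.49 CPM, against 0.314 or less. The gap between the lowest of the 4 and the highest of the other 8 was 15.8-fold for Serpina3c, 4.79-fold for Serpina3j, 2.74-fold for Serpina3a and 2.65-fold for Serpina3b. It was narrower for Serpina3i (1.5-fold) and for Serpina5 (1.44-fold), the protein C inhibitor gene. Serpina3i had a log2 fold change of 1.08 (SE 0.47, edgeR adjusted p = 0.340) with groups that overlap, at 0.498 to 1.57 CPM with PBS (median 0.886) and 0.528 to 3.90 with ghrelin (median 1.87). Serpina3a, Serpina3b, Serpina3j and Serpina5 had too few counts for the test.

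Of 4 pseudogenes of the region, Serpina3l-ps and Serpina3e-ps had the same 4 highest libraries and Serpina3d-ps and Serpina4-ps1 did not. Serpina3l-ps, which lies within the Serpina3m span, was at 5.27 CPM in PBS 3, 4.23 in ghrelin 1, 5.94 in ghrelin 3 and 5.57 in ghrelin 5, against 0.576 to 1.32 elsewhere. Serpina3f, Serpina3g, Serpina3h, Serpina3k, Serpina3m and Serpina3n, among these genes or just beyond them, had another set of 4 highest libraries, though some of the 4 were among them: ghrelin 3 and ghrelin 5 were the highest for Serpina3k and Serpina3m. Serpina3f, for one, ran from 3.30 to 9.07 CPM with PBS (median 5.18) and from 1.87 to 8.79 with ghrelin (median 6.73), with its highest value in PBS 5 (log2 fold change 0.05, edgeR adjusted p = 0.969).

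**Figure D4:**
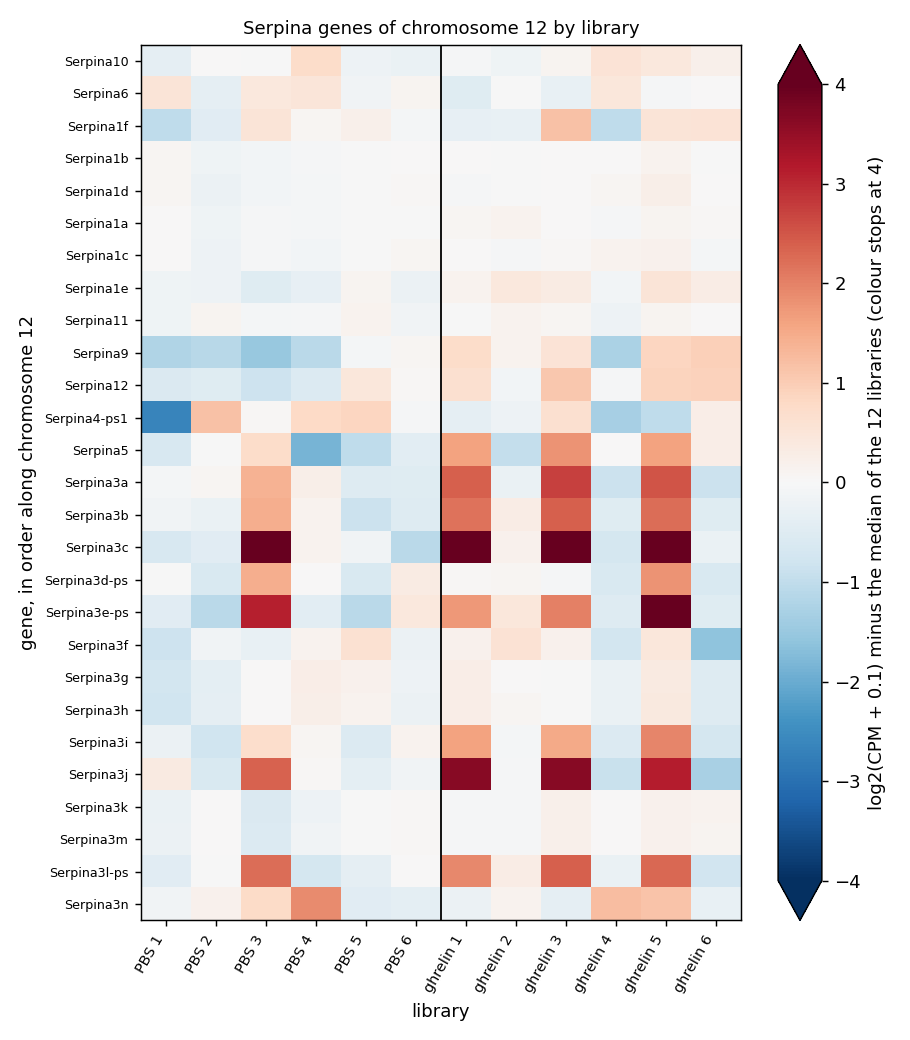
Serpina genes of chromosome 12, pseudogenes included, in order along the chromosome (rows) by library (columns, PBS left of the line). Colour is log2(CPM + 0.1) minus the gene's median over the 12 libraries and stops at 4. The genes from Serpina5 to Serpina3c, with Serpina3i, Serpina3j and 2 pseudogenes, are red in PBS 3, ghrelin 1, ghrelin 3 and ghrelin 5.

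Few genes outside this region had that pattern. Of 16941 genes with at least 30 counts, 57 had the same 4 highest libraries, and in 11 of these the gap to the fifth library was at least 2-fold. Only 21 genes had such a gap after the fourth library in any combination of libraries. Of the 11, 8 lie on chromosome 12 and 7 of them within 250 kb of the Serpina3c start. These are Serpina3a, Serpina3b, Serpina3c, Serpina3j, Serpina3l-ps, Serpina3e-ps and a 5S ribosomal RNA row (chr12:104109283-104109390). The eighth is the noncoding RNA gene 4930408O17Rik, which starts 704 kb from Serpina3c. The last 3 are Gm14520 and Gm14516, which hold equal counts, and Gm10000, for which no position was used here. Within 1000 kb of the Serpina3c start, 11 of 48 genes (22.9%) had these 4 libraries highest, against 43 of 16534 elsewhere (0.26%). The 11 include Serpina3c, whose own values set the 4 libraries, and the neighbours already named. That share describes where the pattern lies and is not separate support for it. In the 4 libraries Saa1 was at 1225 CPM (PBS 3), 76.4 (ghrelin 1), 50.9 (ghrelin 3) and 484 (ghrelin 5), and its part in the pattern was not tested.

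The promoters of the 2 members with the widest gaps are shown because they were high in the same libraries. They are the 250 bases before the RefSeq start on GRCm38.p6, for Serpina3c chr12:104153873-104154122 on the minus strand and for Serpina3j chr12:104314320-104314569 on the plus strand, 5′ to 3′. Capitals mark matches on either strand. The motifs searched were the letters TATAAA (the core of a TATA box), the CCAAT box, and TTCNNNGAA, a general form of the sites of STAT factors.
Serpina3c: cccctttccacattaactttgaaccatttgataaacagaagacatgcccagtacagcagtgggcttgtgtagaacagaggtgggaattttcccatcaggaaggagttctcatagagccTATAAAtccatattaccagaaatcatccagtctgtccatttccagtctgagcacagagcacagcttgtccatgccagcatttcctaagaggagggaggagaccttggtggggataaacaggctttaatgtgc
Serpina3j: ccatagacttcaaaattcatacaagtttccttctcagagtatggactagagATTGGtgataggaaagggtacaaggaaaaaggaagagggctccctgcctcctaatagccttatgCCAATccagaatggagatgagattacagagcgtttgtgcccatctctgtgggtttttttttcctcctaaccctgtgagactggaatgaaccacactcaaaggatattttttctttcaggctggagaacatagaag
Serpina3c holds 1 TATAAA, found in 12.4% of the 32851 promoters of this length. Serpina3j holds 2 matches to CCAAT, a motif found in 33.9% of promoters. Neither holds TTCNNNGAA, found in 7.02%. None of the 3 motifs was in both. A match of letters is a description and not a measured binding site.

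A pair of further clade A members carry or control plasma factors. Serpina6 encodes the corticosteroid-binding globulin. It ran from 97.1 to 177 CPM with PBS (median 149) and from 87.8 to 170 with ghrelin (median 122), ranges that lie over each other, with a log2 fold change of -0.24 (SE 0.17, edgeR adjusted p = 0.548). Serpina10 encodes the protein Z-dependent inhibitor of coagulation factor Xa. It ran from 152 to 327 CPM with PBS (median 181), where PBS 4 was highest, and from 175 to 283 with ghrelin (median 217, highest in ghrelin 4). Its log2 fold change was 0.16 (SE 0.17, edgeR adjusted p = 0.731).

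Antithrombin and heparin cofactor II, the inhibitors of thrombin, were the steadiest members. Serpinc1 (antithrombin) ran from 1836 through a median of 1890 to 2063 CPM with PBS, and from 1919 through 1970 to 2033 with ghrelin. The groups lay over each other, with a log2 fold change of 0.04 (SE 0.052, edgeR adjusted p = 0.750). Its spread within groups was 0.050 on the log2 scale, below that of all but 0.275% of the genes tested. Serpind1 (heparin cofactor II) ran from 597 to 674 CPM with PBS (median 622) and from 617 to 665 with ghrelin (median 645), with a log2 fold change of 0.02 (SE 0.052, edgeR adjusted p = 0.886).

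Clade E was low in the liver. Serpine2 (ENSMUSG00000026249), protease nexin 1, inhibits thrombin and urokinase at cell surfaces. It was at 3.14, 4.62, 2.22, 1.32, 3.07 and 2.28 CPM in PBS libraries 1 to 6, and at 5.18, 4.33, 3.41, 3.53, 5.26 and 4.13 CPM in ghrelin libraries 1 to 6. All ghrelin libraries lay above 5 of the 6 PBS libraries, and PBS 2 lay among them. This is a log2 fold change of 0.62 (SE 0.23, edgeR adjusted p = 0.271). Of the 8 stellate cell markers, whose summed range is given above, Lrat had a log2 fold change of 0.69 (edgeR adjusted p = 0.291), Dcn had -0.21 (edgeR adjusted p = 0.275), and the other 6 had unadjusted p over 0.05. Their part in the Serpine2 values was not tested. Serpine3 had 2 counts in all.

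**Figure D5:**
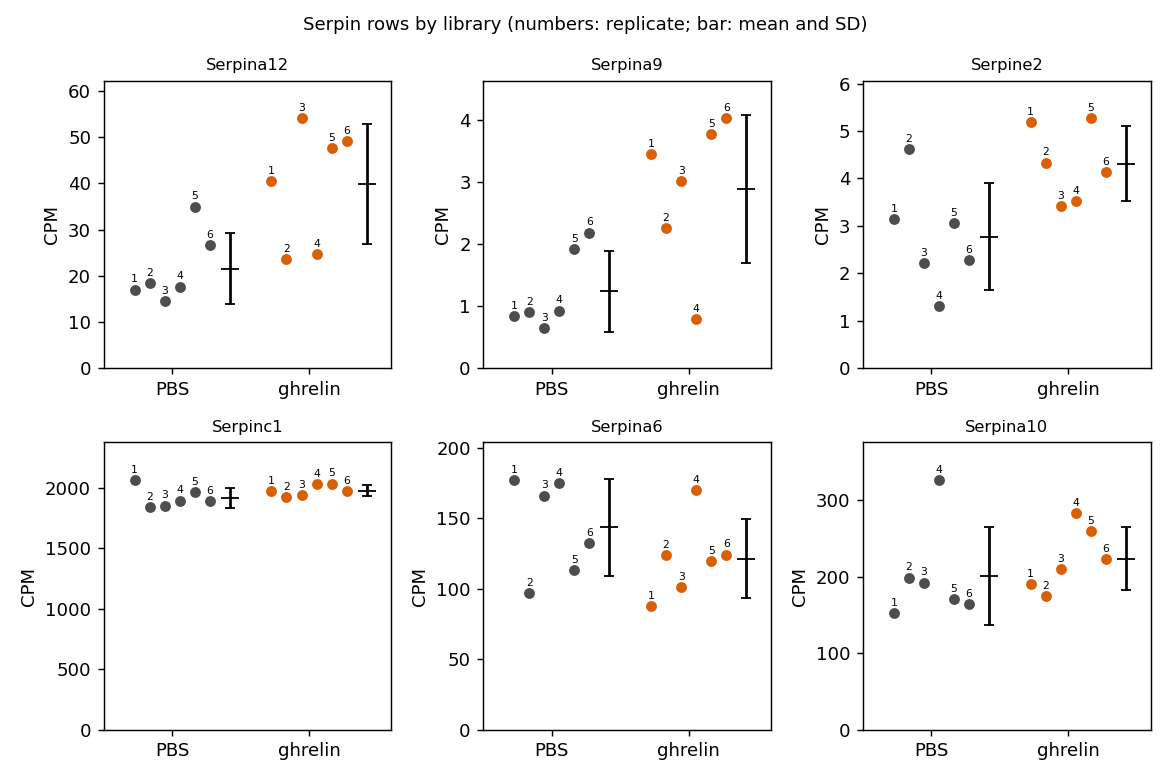
CPM of 6 serpins by library. Points are libraries with their replicate number, and the bar beside each group is the mean with SD (n = 6). Ghrelin values of Serpina12, Serpina9 and Serpine2 lie mostly above the PBS values, and those of Serpinc1, Serpina6 and Serpina10 lie among them.

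Members of clades F, G and H had log2 fold changes of 0.13 or less. Serpinf2, the plasmin inhibitor alpha-2-antiplasmin, ran from 744 to 912 CPM with PBS (median 841) and from 820 to 995 with ghrelin (median 915), with a log2 fold change of 0.11 (SE 0.069, edgeR adjusted p = 0.531). Serpinf1, pigment epithelium-derived factor, which inhibits no protease, ran from 411 to 521 CPM (median 473) and from 461 to 578 (median 493), a log2 fold change of 0.10 (edgeR adjusted p = 0.585). Groups overlapped in both. Serping1, the C1 inhibitor of the complement and contact systems, ran from 545 to 667 CPM with PBS (median 629) and from 565 to 721 with ghrelin (median 596), a log2 fold change of 0.02 (edgeR adjusted p = 0.949). Serpinh1, the collagen chaperone HSP47, ran from 8.85 to 11.2 CPM (median 10.1) and from 9.29 to 12.8 (median 11.4), a log2 fold change of 0.13 (edgeR adjusted p = 0.567).

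Intracellular serpins of clade B were low, and 5 of 27 were tested. Serpinb9, an inhibitor of granzyme B, ran from 8.93 to 11.6 CPM with PBS (median 10.3) and from 6.23 to 12.7 with ghrelin (median 9.12), with a log2 fold change of -0.19 (edgeR adjusted p = 0.575). Serpinb6a ran from 13.2 to 15.2 CPM and from 12.4 to 15, with a log2 fold change of -0.07 (edgeR adjusted p = 0.704). Serpinb1a, an inhibitor of neutrophil elastase and cathepsin G, ran from 0.906 to 3.0 CPM with PBS (median 2.29) and from 1.34 to 1.80 with ghrelin (median 1.69), with a log2 fold change of -0.29 (edgeR adjusted p = 0.621). The ghrelin libraries of Serpinb1a lay within the PBS range. Of the neutrophil markers, S100a8 had a log2 fold change of -1.44 (edgeR adjusted p = 0.145) and S100a9 of -0.99 (edgeR adjusted p = 0.275), and their part in the Serpinb1a values was not tested. Serpinb8 and Serpinb6b had log2 fold changes of -0.18 and 0.26, with overlapping groups.

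Of the 22 untested clade B rows, 18 had a count in some library. Serpinb7 had the most, 18 counts over 7 libraries. Serpinb9d, Serpinb9e, Serpinb9f and Serpinb9g each had 1 count, all in PBS 1, and Serpinb5, Serpinb12 and Serpinb13 each had 3, all in ghrelin 3. Serpini1, neuroserpin, had 48 counts over the 12 libraries, at 0.0453 to 0.384 CPM with PBS and 0.0941 to 0.297 with ghrelin.

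Genes that work with the serpins were examined as fixed lists, and edgeR's main test called none of the listed genes. Of 20 tested proteases that serpins inhibit, 15 lay above 0 and 5 below, with a median log2 fold change of 0.06 beside 3.19e-05 over all genes. One had an unadjusted p under 0.05: F11, coagulation factor XI, at 108 ± 9.34 CPM with PBS and 122 ± 8.58 with ghrelin (SD, n = 6 each), a log2 fold change of 0.19 (edgeR adjusted p = 0.271). F10, Masp2 and F12 had 0.11, 0.08 and 0.08. Elane, Ctsg and Prtn3, the neutrophil proteases that alpha-1-antitrypsin and Serpina3n are known to inhibit, were not among the tested genes.

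The endoplasmic reticulum genes that fold, export or degrade alpha-1-antitrypsin lay mostly above 0, with 11 of 12 higher (50% of all genes) and a median log2 fold change of 0.10. Of these, 3 of 12 (25%) had an unadjusted p under 0.05, beside 13.4% of all genes. Edem2, which trims misfolded glycoproteins for disposal, was at 46.1 ± 6.22 CPM with PBS and 58.4 ± 9.57 with ghrelin (SD, n = 6 each), a log2 fold change of 0.34 (edgeR adjusted p = 0.219). Uggt1, the folding sensor, and Calr, calreticulin, had 0.19 and 0.23 (edgeR adjusted p = 0.357 and 0.366). Of 12 tested cofactors, clearance receptors, clients and ligand partners, 7 lay above 0 and 5 below, with a median of 0.04. The only one with an unadjusted p under 0.05 was Agtr1a, an angiotensin II receptor, with a log2 fold change of -0.15 (edgeR adjusted p = 0.324).

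Transcription factors known to act on liver serpin genes were split, 5 above 0 and 5 below, with a median of -0.00471. Ppargc1a, a coactivator of the fasting response, was at 27.3 ± 7.68 CPM with PBS and 13.2 ± 3.56 with ghrelin (SD, n = 6 each), a log2 fold change of -1.06 (SE 0.20, edgeR adjusted p = 0.0564). It passed in 5 of 20 alternatives, DESeq2 among them (adjusted p = 5.78e-05), with adjusted p from 5.78e-05 to 0.159. Onecut1, encoding hepatocyte nuclear factor 6, had -0.84 (edgeR adjusted p = 0.348). Acute phase genes lay mostly below 0, with 4 of 15 higher, 11 lower and a median of -0.22. Crp was the one with an unadjusted p under 0.05, with a log2 fold change of -0.18 (edgeR adjusted p = 0.282). The acute phase list summed to 26346 to 49614.5 CPM with PBS, highest in PBS 4 and next in PBS 3 (40380). With ghrelin it summed to 26671 to 38318 CPM, so the groups overlapped. The part of PBS 3 and PBS 4 in the signs of this list was not tested.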

How the data were processed

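Livers of 6 PBS and 6 ghrelin libraries were compared. Groups and replicate numbers came from the sample labels, which name no batch. The authors deposited 1 table of whole-number exon counts per gene. Per the submitters' processing notes, STAR 2.4.0i and mm10 were used. How reads in overlapping or repeated genes were counted is not given in the sources used here. Per the labels' protocols the kit was stranded and depleted ribosomal RNA.

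From the deposited counts, genes were kept by filterByExpr (minimum count 10, minimum total 15), which left 14170, scaled by TMM and tested with edgeR 4.0.16 in R 4.3.3 by the quasi-likelihood test, with Benjamini-Hochberg adjustment over all of them at a threshold of 0.05. Log2 CPM used a prior count of 2. The steps were tested on simulated data. DESeq2 1.42.0 and other scalings, filters and left-out libraries were alternatives. Relations used 100000 permutations, two-sided. Positions, exon lengths and coding sequences are from GENCODE M21 (GRCm38), and all 62 members matched. Promoters are from RefSeq (GRCm38.p6), with an entry for 51 of 62 members. Copies were aligned with MAFFT 7.526. Protein sequences were not used here, and single values of 1 member and 1 listed gene are not reported here, though counts of members and lists include them.

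Named members were those with the 12 smallest p, the most abundant of each clade per kilobase, and well-known plasma serpins, and up to 4 genes per list by smallest p. The members and lists were chosen with earlier results of these data known. Counts range from 15775059 to 22302533 per library, intervals and floors cover counting error only, and no 2 libraries of a group agreed within sampling noise (chi-square per degree of freedom 11.7 to 48.6).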

Additional observations from a re-analysis of the deposited data

Results flagged for a closer look

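In 5 of 64 sets of 6 values (32 tested members in each group), 1 library lay far from the other 5, by a gap over 0.625 of the set's range. Chance flags about 1 set in 20. Serpina10 was at 327 CPM in PBS 4, against 152 to 199 in the other PBS libraries. PBS 4 was also highest for Serpina3n, at 1922 CPM. Serpina3c was at 22.8 CPM in PBS 3, against 0.547 to 1.42 in the other PBS libraries. Serpina1b was at 8030 CPM in ghrelin 5, against 7236 to 7416 in the other ghrelin libraries, a small step for a gene with little spread. Serpina9 was at 0.800 CPM in ghrelin 4, against 2.26 to 4.03, and Serpina1e was also lowest of its group there. Serpinb1a was at 1.34 CPM in ghrelin 6, against 1.63 to 1.80.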

How the results depend on the processing

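No serpin was called under 5 of the alternatives that kept all libraries (RLE or upper quartile factors, library totals, a mean of at least 1 CPM, robust estimation). The count of members called was 1 with no low count filter, 1 with the replicate number as a block and 2 with DESeq2. Leaving out 1 library gave 0 to 1, the 1 being Serpina1e without ghrelin 4. Serpina1e had an adjusted p under 0.05 in 4 of 20 alternatives, with values of 0.44 to 0.55. Members with groups apart were 0 with all libraries, beside 0.826% of all genes. They were 0 to 2 with 1 library left out, where smaller groups separate more easily. The share over all genes was not computed for those settings, so that count has no background beside it. Over all genes, 15 calls of 14170 genes became 63 of the 27410 genes with a count when no low count filter was used. Calls were 9 with robust estimation and 58 with the replicate block, both of 14170 genes, and 221 with DESeq2. With 1 library left out they ranged from 0 to 32: 5 without PBS 3, 24 without PBS 5, 23 without PBS 6, 0 without ghrelin 1, 9 without ghrelin 2, 0 without ghrelin 3, 32 without ghrelin 4 and 6 without ghrelin 6. The cause was not tested. The replicate numbers do not pair the libraries by label. Same-numbered libraries had correlations of -0.08 to 0.27 in their deviations, and 1 of 6 PBS libraries was closest to its own number. Signs turned for Serpina3f, to -0.00073 under the block, and within ranges of -0.093 to 0.243 with 1 library left out (below 0 without PBS 1, ghrelin 2 or ghrelin 5). They turned for Serping1 without the same libraries, in a range of -0.024 to 0.048, and for Serpina3n without PBS 4, in a range of -0.38 to 0.36. Scaling moved the median of all genes by at most 0.014. Leaving out 3 rows that repeat another, an alternative chosen after seeing the data, gave 0 members called and 8 at an unadjusted p under 0.05, against 9. Serpina3i rests on 11 to 63 counts per library, so its values are imprecise.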

Other observations

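Some values belong to no comparison above. With no low count filter, the rows too low for the main test could be fitted by edgeR: Serpina5 had a log2 fold change of 1.53 (adjusted p = 0.250), Serpina3j of 2.04 (adjusted p = 0.341), Serpina3b of 1.55 (adjusted p = 0.384) and Serpina3a of 1.74 (adjusted p = 0.402). These rest on the same 4 high libraries as Serpina3c. Serpina1f, a sixth Serpina1 gene that lies beside the liver copies, had 0 to 0.185 CPM with PBS and 0 to 0.346 with ghrelin.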
